A study of Mus musculus with 16 samples.

Results

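The genes described here are the G1 cyclins, cyclin-dependent kinases (CDKs) and retinoblastoma (RB) family genes Ccnd2, Ccnd3, Ccne1, Ccne2, Cdk2, Cdk4, Cdk6, Cdkn1b, Rb1 and Rbl1. They are 10 of the 16475 genes measured, each the only row of the deposited table annotated with its symbol, and no filter on low values was used, so all 10 were tested in every comparison. The cells were CD4+ T cells from lymph nodes and spleens of GFP-Foxp3 knock-in mice of the strain C57BL/6, aged 6 to 12 weeks, in which GFP reports the transcription factor Foxp3. They were sorted on GFP to a stated purity above 97% into TFoxp3+ cells, which are regulatory T cells, and TFoxp3- cells, so that the level of Foxp3 itself is no finding. Buffers for ex vivo cells held cycloheximide (100 µg/ml) to keep ribosomes in place, and each ex vivo sample pooled RNA of 2 experiments. Activated cells were given plate-bound anti-CD3 and anti-CD28 (5 µg/ml) and human IL-2 (100 U/ml) over 36 h of culture, and cycloheximide (100 µg/ml) was added to their medium at its end. Affymetrix arrays measured the cytosolic mRNA of both subsets in both states and, separately, their polysome-associated mRNA, taken as that with 3 ribosomes or more. This gave 8 groups of 2 arrays, described as biological duplicates in the methods.

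In late G1 of the cell cycle, D-type cyclins bind CDK4 and CDK6 and E-type cyclins bind CDK2. These kinases phosphorylate the RB family of pocket proteins, which otherwise hold E2F transcription factors inactive, and the inhibitor p27Kip1, encoded by Cdkn1b, restrains the cyclin E and CDK2 complex. Resting T cells are held before this step, and signals from the T cell receptor, CD28 and IL-2 carry them through it.

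The values are log2 intensities, and a difference of 1 on this scale is a 2-fold change. Intensities of different genes come from different probes, so only values of the same gene were compared. The array medians lay between 4.84 and 5.06, and a gene near or below them was measured close to the level at which most genes of the array lay, without a call of detection. Arrays were numbered 1 to 16 in the labels: 1 to 8 hold ex vivo cells, 9 to 12 activated TFoxp3- cells and 13 to 16 activated TFoxp3+ cells, and odd numbers are cytosolic. Where 2 values of a group are given, the array with the lower number comes first. The array names in the labels fall into 3 series, 1 with all ex vivo arrays and 1 for each activated subset. Array series therefore cannot be told apart from activation, or from the subset in activated cells, whereas the ex vivo subset comparison and each comparison of polysome-associated with cytosolic mRNA lie within a series.

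The labels were checked on defining markers. Foxp3 ranged from 9.42 to 10.76 in TFoxp3+ cells and from 3.74 to 6.85 in TFoxp3- cells, and all 8 measured T cell markers lay above the array medians in every group. Of 7 B cell markers, 3 lay above the medians in ex vivo TFoxp3- cells and 1 or none elsewhere, with a mean over the list of 4.96 to 5.20 in ex vivo TFoxp3- cells, 4.60 to 4.79 in ex vivo TFoxp3+ cells, 3.72 to 4.30 in activated TFoxp3- cells and 4.32 to 4.83 in activated TFoxp3+ cells. The myeloid list (11 genes, at most 3 above the medians) was at 4.24 to 4.61 ex vivo, 3.85 to 4.20 in activated TFoxp3- cells and 4.58 to 4.86 in activated TFoxp3+ cells. The stromal and endothelial list (10 genes, at most 2 above) was at 3.76 to 3.89 ex vivo. It was at 3.89 to 4.21 in activated TFoxp3- cells and at 4.55 to 4.82 in activated TFoxp3+ cells. The B cell gene Ms4a1 was at 2.94 to 4.36 on all arrays and Cd79b at 8.02 to 9.07 on ex vivo arrays. The part of other cells in the results below was not tested. RNA of ex vivo TFoxp3+ cells stood apart in the actin control probe sets, where the 3' signal exceeded the 5' signal by 4.16 to 4.64, against 0.82 to 1.38 in ex vivo TFoxp3- cells and -0.59 to -0.20 in all activated cells. Replicate arrays correlated least in activated TFoxp3+ cells (Pearson's r of 0.887 and 0.888, across genes) and at 0.941 to 0.992 elsewhere. The p-values rest on the spread between arrays, and 2 arrays per group limit their precision. For each gene 1 estimate of the spread was shared by all 8 groups. Ex vivo replicates correlated at 0.980 to 0.992, however, and activated ones at 0.887 to 0.945. The shared spread can therefore be too small for activated cells and too large for ex vivo cells. Because it is shared, leaving out an array of a group that is not compared changes the test but not the difference. A fit of only the groups compared called fewer genes between activated subsets and more between ex vivo subsets.

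RefSeq start-site windows of 300 bases (build GRCm38.p6), 250 before and 50 after the start, were at hand for 7 of the 10 genes, with 2 windows for Ccnd3. They were searched on both strands for words known as sites of the factors that act on or through this pathway. An E2F word (TTTCCCGC, TTTCGCGC, TTTGCCGC or TTTGGCGC) was found in 2 of these 8 windows, those of Rbl1 and Cdk2, and in 2.26% of all 32851 windows. The E-box CACGTG was found in 2, those of Cdk4 and Cdk6, and in 7.15% of all windows. The FOXO word TTGTTTAC was found in none of them and in 1.23% of all windows. The 250 bases before the start of Rbl1, Cdk2 and Cdk4 are shown as examples of windows that hold the words, on the strand of the gene from 5' to 3' with each word in capitals. Their positions are chr2:157204535-157204784 (minus strand) for Rbl1, chr10:128705052-128705301 (minus strand) for Cdk2 and chr10:127063285-127063534 (plus strand) for Cdk4.
Rbl1: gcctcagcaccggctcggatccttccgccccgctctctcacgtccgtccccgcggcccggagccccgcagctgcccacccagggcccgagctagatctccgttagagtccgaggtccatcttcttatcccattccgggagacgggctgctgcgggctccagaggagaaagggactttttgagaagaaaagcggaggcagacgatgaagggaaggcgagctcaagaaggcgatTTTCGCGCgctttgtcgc
Cdk2: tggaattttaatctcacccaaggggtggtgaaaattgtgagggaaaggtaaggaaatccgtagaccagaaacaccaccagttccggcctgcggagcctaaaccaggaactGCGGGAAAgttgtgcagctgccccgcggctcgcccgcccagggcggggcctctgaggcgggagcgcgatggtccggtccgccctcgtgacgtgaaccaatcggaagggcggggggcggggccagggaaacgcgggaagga
Cdk4: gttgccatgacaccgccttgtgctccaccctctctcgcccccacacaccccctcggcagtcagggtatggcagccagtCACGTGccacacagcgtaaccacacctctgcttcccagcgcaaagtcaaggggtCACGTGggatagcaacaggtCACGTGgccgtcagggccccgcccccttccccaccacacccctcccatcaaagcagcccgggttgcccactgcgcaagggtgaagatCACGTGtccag
The Rbl1 word began 18 bases before the start, that of Cdk2, which lies on the opposite strand, 140 bases before it, and the 4 E-boxes of Cdk4 between 172 and 11 bases before it. The E-box of Cdk6, whose window is not shown, began 220 bases before its start. A match is a description of these letters and not evidence of binding.

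With activation, genes of each role changed. In cytosolic mRNA of TFoxp3- cells, 3 rose (Ccne1, Ccne2 and Cdk6) and 2 fell (Ccnd3 and Rb1) at an adjusted p under 0.05, where 13.6% of all genes rose and 12.5% fell. In their polysome-associated mRNA, 3 rose (Ccne1, Ccne2 and Cdk6) and 1 fell (Rbl1), against 14.1% and 16.4% of all genes. In TFoxp3+ cells, 4 rose (Ccnd2, Ccne1, Cdk6 and Cdkn1b) and 3 fell (Cdk4, Rb1 and Rbl1) in cytosolic mRNA, against 16.9% and 14.4%, and 5 rose (Ccnd2, Ccne1, Cdk6, Cdkn1b and Rbl1) and 1 fell (Rb1) in polysome-associated mRNA, against 14.7% and 14.6%. The median log2 difference of the 10 genes was -0.029, 0.21, 0.58 and 0.85 in these comparisons, and that of all genes 0.11, 0.023, 0.13 and 0.089. Ccne1 and Cdk6 were the genes that rose in all 4 comparisons. Since the samples are bulk RNA, fewer cells expressing a gene and less of its mRNA per cell cannot be told apart.

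Between the subsets, at an adjusted p under 0.15, 1 gene was higher in TFoxp3+ cells (Cdkn1b) and 2 were lower (Ccnd2 and Ccnd3) in ex vivo cytosolic mRNA, where 2.06% of all genes were higher and 2.58% lower. In ex vivo polysome-associated mRNA none was higher and 3 were lower (Ccnd2, Ccnd3 and Rbl1), against 1.62% and 2.25%. The methods state no threshold for the ex vivo subsets, and at 0.05 Rbl1 in polysome-associated mRNA would be the only one of these 6 ex vivo calls. Each of the 6 was kept in a fit of only the groups compared and with array weights, and each was lost in some fits without 1 array. After activation, 2 were higher (Cdk6 and Cdkn1b) and 3 lower (Ccne2, Cdk4 and Rbl1) in cytosolic mRNA, against 13.8% and 12.2%, and 1 was higher (Cdkn1b) and 3 lower (Ccne1, Ccne2 and Rb1) in polysome-associated mRNA, against 18.7% and 13.7%. Centring each array on its median moved the share of higher calls among all called genes from 44.4% to 32.0%, from 41.8% to 35.5%, from 53.2% to 37.3% and from 57.7% to 44.7% in these comparisons, and the median of all genes in the last of them was 0.20.

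**Figure D1:**
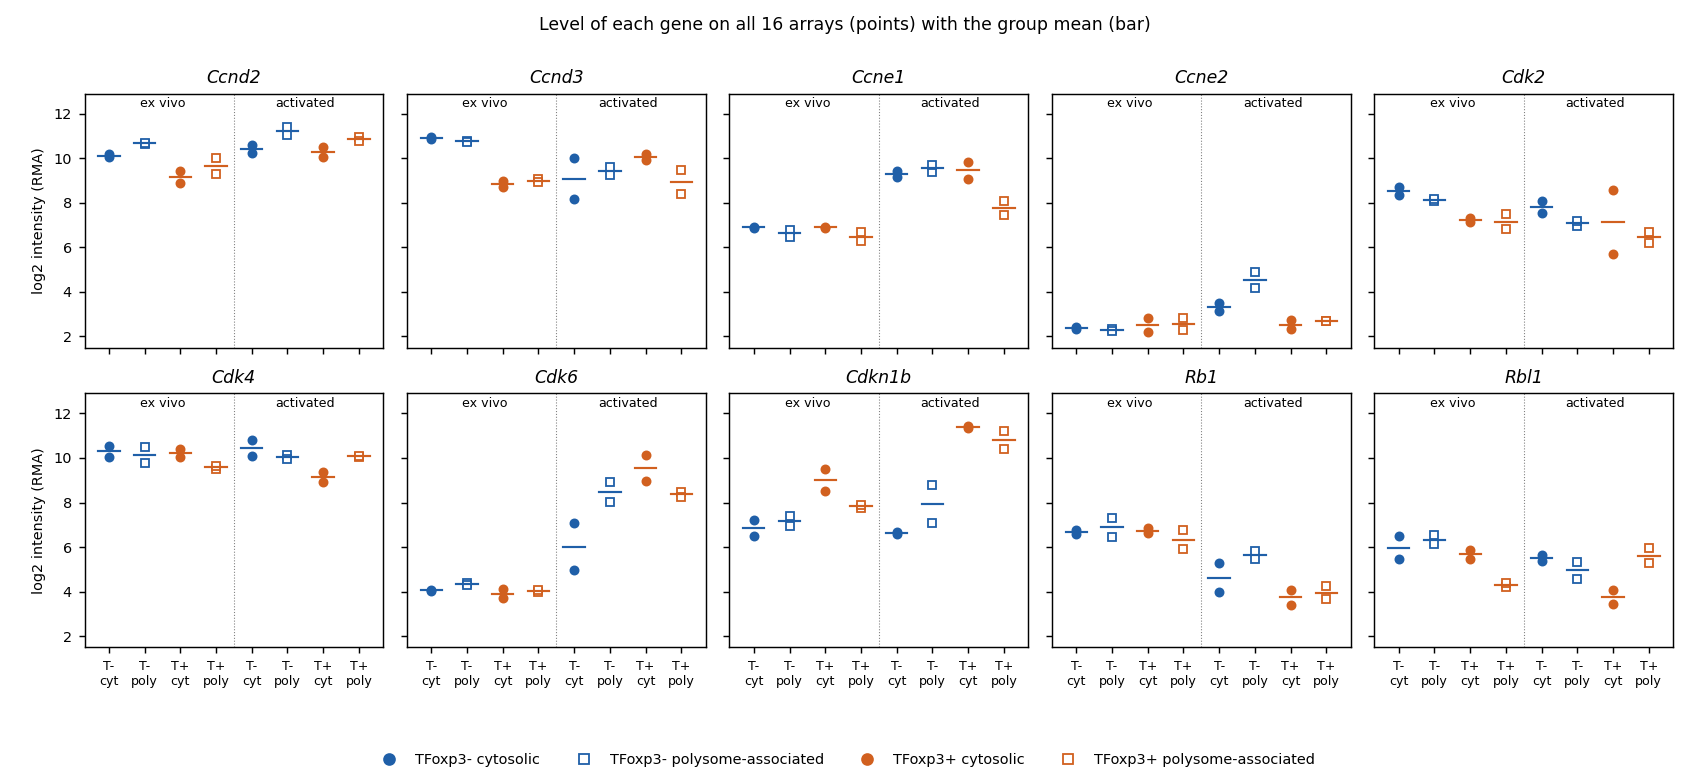
Each panel plots 1 gene. The vertical axis is the log2 intensity and the horizontal axis the 8 groups, with ex vivo groups left and activated groups right of the dotted line (T- is TFoxp3-, T+ is TFoxp3+, cyt is cytosolic, poly is polysome-associated). Points are the 2 arrays of a group and bars their mean. Cdkn1b on the activated TFoxp3+ arrays, at 10.40 to 11.42, lies above all other arrays, and Cdk2 in activated TFoxp3+ cytosolic mRNA spans 5.69 to 8.55.

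Ccnd2 encodes cyclin D2, a D-type cyclin that growth signals induce in lymphocytes. In TFoxp3- cells its level was 10.06 and 10.18 in ex vivo cytosolic mRNA and 10.64 and 10.70 in ex vivo polysome-associated mRNA, and 10.57 and 10.25 and then 11.40 and 11.03 in the same fractions after activation. In TFoxp3+ cells the cytosolic level was 8.88 and 9.41 ex vivo and 10.50 and 10.08 after activation, and the polysome-associated level 9.29 and 9.99 ex vivo and 10.93 and 10.77 after activation. The ex vivo TFoxp3+ arrays were thus the lowest for this gene, and below all ex vivo TFoxp3- arrays. Activation of TFoxp3+ cells raised Ccnd2 by 1.14 ± 0.29 (adjusted p = 0.0125) in cytosolic and by 1.21 ± 0.29 (adjusted p = 0.00965) in polysome-associated mRNA (log2 difference ± SE, here and below), which is 2.20-fold and 2.31-fold. The differences in TFoxp3- cells were 0.29 ± 0.29 (adjusted p = 0.492) and 0.54 ± 0.29 (adjusted p = 0.183), and the difference between the subsets in their response was not called in either fraction, at 0.85 ± 0.41 (adjusted p = 0.356) and 0.67 ± 0.41 (adjusted p = 0.465). Ex vivo, TFoxp3+ cells had less Ccnd2, with differences of -0.97 ± 0.29 (adjusted p = 0.139) in cytosolic and -1.03 ± 0.29 (adjusted p = 0.125) in polysome-associated mRNA, and after activation the arrays of the subsets overlapped in cytosolic mRNA. The activation calls were lost without array 1 or 13 (log2 difference 0.87 to 0.93, adjusted p from 0.069 to 0.107) in cytosolic and without array 2 (log2 difference 0.86, adjusted p = 0.0942) in polysome-associated mRNA. The ex vivo subset calls were near the threshold. They were lost without array 1, 3, 5 or 7 (log2 difference -1.24 to -0.71) in cytosolic and without array 2, 4 or 8 (log2 difference -1.06 to -0.68) in polysome-associated mRNA. They were also lost without arrays of the other fraction, which leave the difference unchanged. These were array 4 or 8 for cytosolic and array 1, 3, 5 or 7 for polysome-associated mRNA. A fit of only the groups compared ended both activation calls (adjusted p from 0.0755 to 0.0872), array weights that in polysome-associated mRNA (adjusted p = 0.0546), and cyclic loess both subset calls (adjusted p from 0.272 to 0.307). Both ex vivo subset calls were kept in a fit of only the groups compared and with array weights. Cyclic loess moved the cytosolic activation difference of TFoxp3+ cells to 1.75 (adjusted p = 0.00204).

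Ccnd3 encodes cyclin D3, the D-type cyclin needed for expansion of immature T cells. It was highest in ex vivo TFoxp3- cells, at 10.87 and 10.94 in cytosolic and 10.79 and 10.74 in polysome-associated mRNA, and lay at 8.96 and 8.71 and at 9.05 and 8.94 in the same fractions of ex vivo TFoxp3+ cells. These ex vivo groups did not overlap, and TFoxp3+ cells were 4.20-fold lower in cytosolic mRNA, at -2.07 ± 0.50 (adjusted p = 0.0705), and 3.41-fold lower in polysome-associated mRNA, at -1.77 ± 0.50 (adjusted p = 0.133). After activation the levels were 10.01 and 8.15 in cytosolic and 9.61 and 9.26 in polysome-associated mRNA of TFoxp3- cells, and 9.91 and 10.21 and then 9.45 and 8.38 in TFoxp3+ cells. The activated groups were the ones whose arrays lay apart, most of all the TFoxp3- cytosolic pair. In TFoxp3- cells cytosolic Ccnd3 was lower after activation, at -1.82 ± 0.50 (adjusted p = 0.0209), and the polysome-associated difference of -1.33 ± 0.50 (adjusted p = 0.0667) was not called. In TFoxp3+ cells the differences were 1.23 ± 0.50 (adjusted p = 0.0846) in cytosolic and -0.080 ± 0.50 (adjusted p = 0.922) in polysome-associated mRNA. The cytosolic responses of the subsets differed by 3.05 ± 0.71 (adjusted p = 0.0547), which narrowly missed the threshold of 0.05 and passed it under 6 alternatives (2.12 to 3.98 over all of them). The polysome-associated difference of TFoxp3- cells also passed under 6, with an adjusted p down to 0.00935. The cytosolic fall in TFoxp3- cells was lost without array 3, 7 or 11 (log2 difference -1.86 to -0.90, adjusted p from 0.0902 to 0.143), and it was -2.75 without array 9 (adjusted p = 0.00103). It was also lost in a fit of only these groups (adjusted p = 0.108), and cyclic loess ended the polysome-associated subset call (adjusted p = 0.188). The ex vivo subset calls were lost without array 1, 3, 5 or 7 (log2 difference -2.19 to -1.95) in cytosolic and without array 2, 4, 6 or 8 (log2 difference -1.83 to -1.71) in polysome-associated mRNA. The latter was also lost without array 1, 3, 5, 7, 10 or 12, which do not enter that comparison and leave the difference at -1.77. Both ex vivo subset calls were kept in a fit of only the groups compared and with array weights.

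The ex vivo subsets are also the groups that differ in the excess of 3' over 5' actin signal (4.16 to 4.64 against 0.82 to 1.38) and in the B cell marker list (4.60 to 4.79 against 4.96 to 5.20). In the GAPDH control probe sets the 3' excess was 3.51 to 4.12 in ex vivo TFoxp3+ cells and 2.26 to 3.37 in ex vivo TFoxp3- cells. On activated arrays it was 1.04 to 1.32, and that of actin -0.59 to -0.20, so the excess also differs with activation. Whether these have a part in the lower Ccnd2 and Ccnd3 of ex vivo TFoxp3+ cells was not tested. The same holds for the ex vivo subset calls of Cdkn1b and Rbl1 and for the activation differences, most of all those of TFoxp3+ cells.

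Cdk6, a kinase partner of the D-type cyclins, rose with activation in both fractions of both subsets. Ex vivo its level was 4.04 and 4.08 in cytosolic and 4.37 and 4.30 in polysome-associated mRNA of TFoxp3- cells, and 3.73 and 4.10 and then 3.996 and 4.06 in TFoxp3+ cells. All 8 of these values lay below the medians of all arrays. After activation the TFoxp3- cells had 7.08 and 4.96 in cytosolic and 8.90 and 8.03 in polysome-associated mRNA, and the TFoxp3+ cells 8.98 and 10.12 in cytosolic and 8.49 and 8.26 in polysome-associated mRNA. Every activated array was above every ex vivo array, and the TFoxp3- cytosolic pair was the lowest of the activated ones. The rise was 5.63 ± 0.58 (adjusted p = 7.77e-05) in cytosolic and 4.35 ± 0.58 (adjusted p = 0.000376) in polysome-associated mRNA of TFoxp3+ cells, and 4.13 ± 0.58 (adjusted p = 0.00033) in polysome-associated mRNA of TFoxp3- cells, and these calls were kept under every alternative run. In cytosolic mRNA of TFoxp3- cells it was 1.96 ± 0.58 (adjusted p = 0.0295), lost without array 3, 7 or 9 (log2 difference 0.90 to 1.98, adjusted p from 0.112 to 0.194) and 3.02 without array 11 (adjusted p = 0.00193), and a fit of only these groups ended it (adjusted p = 0.121). The sizes of these rises are uncertain, as the ex vivo levels were below the array medians, and no folds are given. Activated TFoxp3+ cells had more cytosolic Cdk6 than activated TFoxp3- cells, by 3.53 ± 0.58 (adjusted p = 0.00454) with no overlap of arrays, a difference that lay between 2.47 without array 11 and 4.59 without array 9 and had an adjusted p of 0.184 in a fit of these 2 groups alone, while the polysome-associated levels of the subsets overlapped and differed by -0.090 ± 0.58 (adjusted p = 0.928). The cytosolic response differed between subsets by 3.67 ± 0.82 (adjusted p = 0.0487). This call was lost without array 1, 3, 5, 7, 11 or 15 (log2 difference 2.61 to 3.86), and without polysome array 2, 4, 6 or 8, which leave the difference unchanged. It was also lost with centring (adjusted p = 0.0536) and in a fit of only the cytosolic arrays (adjusted p = 0.128). The polysome-associated response differed by 0.22 ± 0.82 (adjusted p = 0.937).

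Cdk4, the other kinase partner of the D-type cyclins, varied least of the kinases. Its ex vivo levels were 10.53 and 10.07 in cytosolic and 9.77 and 10.51 in polysome-associated mRNA of TFoxp3- cells, and 10.41 and 10.04 and then 9.52 and 9.65 in TFoxp3+ cells. After activation they were 10.11 and 10.83 in cytosolic and 10.12 and 9.93 in polysome-associated mRNA of TFoxp3- cells, and 8.92 and 9.36 and then 10.06 and 10.08 in TFoxp3+ cells. The cytosolic arrays of activated TFoxp3+ cells were lower than all other arrays. Against ex vivo TFoxp3+ cells the difference was -1.09 ± 0.32 (adjusted p = 0.0248) and against activated TFoxp3- cells -1.33 ± 0.32 (adjusted p = 0.0236), while that of the polysome-associated level between the activated subsets was 0.048 ± 0.32 (adjusted p = 0.929). Cyclic loess moved these cytosolic differences to -0.47 (adjusted p = 0.324) and -0.84 (adjusted p = 0.156). Array weights or a fit of these 2 groups alone also ended the subset call (adjusted p up to 0.257). The fall with activation was also lost without array 1, 5 or 13 (log2 difference -1.27 to -0.87, adjusted p from 0.0572 to 0.149), and with array weights or a fit of only these groups (adjusted p from 0.0705 to 0.108).

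**Figure D2:**
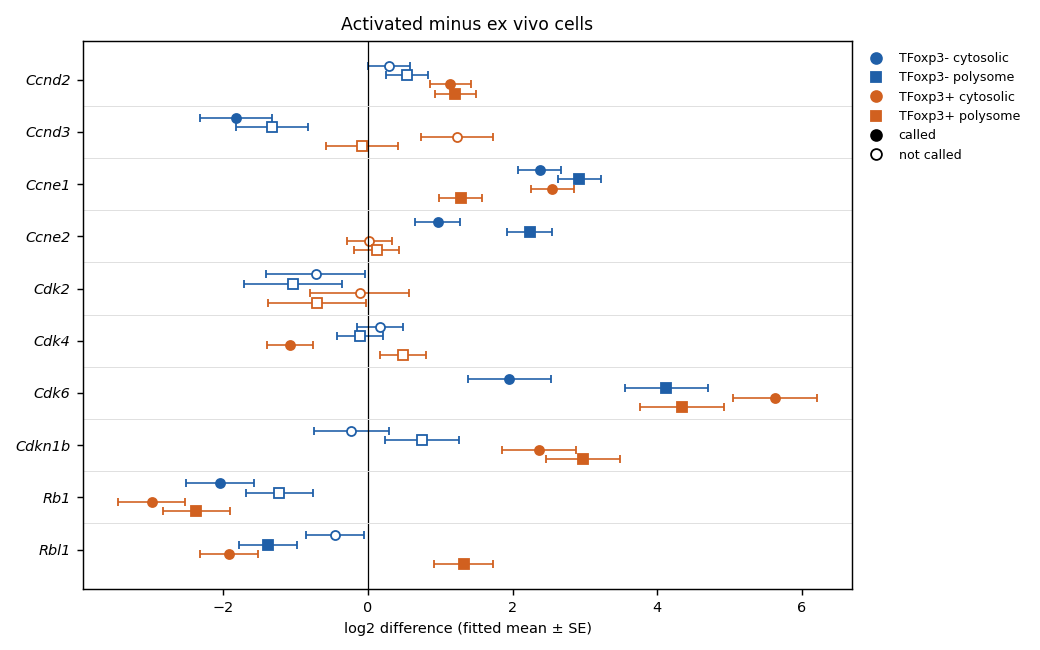
The horizontal axis is the log2 difference of activated minus ex vivo cells and each row is a gene. Circles are cytosolic and squares polysome-associated mRNA, blue is TFoxp3- and orange TFoxp3+, error bars are the SE of the limma fit, and filled symbols passed an adjusted p under 0.05. Ccne1 and Cdk6 lie to the right of 0 in all 4 comparisons, Rb1 to the left, and the Rbl1 symbols of TFoxp3+ cells lie on opposite sides (-1.92 and 1.32).

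Ccne1 encodes cyclin E1, the activating partner of CDK2 at the entry into S phase. Ex vivo its level was 6.92 and 6.89 in cytosolic and 6.79 and 6.46 in polysome-associated mRNA of TFoxp3- cells and 6.88 and 6.93 and then 6.68 and 6.27 in TFoxp3+ cells, with no called difference between the subsets. After activation the TFoxp3- cells had 9.15 and 9.41 in cytosolic and 9.39 and 9.70 in polysome-associated mRNA, and the TFoxp3+ cells had 9.82 and 9.08 in cytosolic but 8.06 and 7.46 in polysome-associated mRNA. All activated arrays lay above all ex vivo arrays, and the polysome-associated pair of TFoxp3+ cells lay below the other 6 activated arrays. Activation raised Ccne1 in TFoxp3- cells by 2.38 ± 0.30 (adjusted p = 0.000237) in cytosolic mRNA, or 5.19-fold, and by 2.92 ± 0.30 (adjusted p = 4.1e-05) in polysome-associated mRNA, or 7.57-fold. In TFoxp3+ cells the rise was 2.55 ± 0.30 (adjusted p = 0.000169) or 5.86-fold in cytosolic mRNA and 1.28 ± 0.30 (adjusted p = 0.00862) or 2.43-fold in polysome-associated mRNA. The cytosolic levels of the activated subsets differed by 0.17 ± 0.30 (adjusted p = 0.743), and the polysome-associated level was 3.45-fold lower in TFoxp3+ cells, at -1.79 ± 0.30 (adjusted p = 0.00372). The difference between subsets in the polysome-associated response itself was -1.64 ± 0.42 (adjusted p = 0.0697) and missed the threshold. The polysome-associated rise in TFoxp3+ cells was lost without array 6 or 14 (log2 difference 0.98 to 1.07) and in a fit of only these groups (adjusted p = 0.0791). The other activation calls and the subset call were kept under every alternative. For the subset call the adjusted p of limma rose to as much as 0.14, close to its threshold of 0.15.

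Ccne2, for cyclin E2, a close relative of cyclin E1, was measured at 2.41 and 2.34 in cytosolic and 2.33 and 2.26 in polysome-associated mRNA of ex vivo TFoxp3- cells and at 2.82 and 2.21 and then 2.85 and 2.31 in ex vivo TFoxp3+ cells. After activation it was at 3.51 and 3.16 in cytosolic and 4.91 and 4.16 in polysome-associated mRNA of TFoxp3- cells, and at 2.75 and 2.32 and then 2.68 and 2.71 in TFoxp3+ cells. The 4 activated TFoxp3- arrays were above the other 12, but no value exceeded the highest array median, so the sizes are uncertain and no folds are given. The rise with activation of TFoxp3- cells was 2.24 ± 0.31 (adjusted p = 0.000304) in polysome-associated mRNA, a call kept under every alternative that measured it (1.86 to 2.61), and 0.96 ± 0.31 (adjusted p = 0.0416) in cytosolic mRNA, where it was lost without array 3, 4, 7, 8, 9 or 11 (log2 difference 0.79 to 1.14, adjusted p from 0.0611 to 0.171) and with centring or cyclic loess (adjusted p from 0.0533 to 0.0925). The differences in TFoxp3+ cells were 0.020 ± 0.31 (adjusted p = 0.968) and 0.12 ± 0.31 (adjusted p = 0.81). The polysome-associated responses of the subsets differed by -2.12 ± 0.44 (adjusted p = 0.0318), lost without array 2, 3, 4, 6, 7, 8 or 10 (log2 difference -2.39 to -1.74, adjusted p from 0.0549 to 0.133) and with array weights or a fit of only the polysome-associated arrays (adjusted p from 0.0639 to 0.0829). Activated TFoxp3+ cells were lower than activated TFoxp3- cells, at -1.84 ± 0.31 (adjusted p = 0.00399) in polysome-associated mRNA and at -0.80 ± 0.31 (adjusted p = 0.118) in cytosolic mRNA. The polysome-associated call was kept under every alternative that measured it, with an adjusted p of up to 0.142, close to the threshold of 0.15. The cytosolic call was lost without array 9 or 15 (log2 difference -0.63 to -0.59). It was also lost without ex vivo array 3, 4, 7 or 8, which leave the difference unchanged. Array weights or a fit of only these groups ended it as well (adjusted p from 0.366 to 0.419).

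Cdk2, the kinase partner of the E-type cyclins, was not called in any of the 18 comparisons, and its smallest unadjusted p in limma was 0.084. Its ex vivo levels were 8.73 and 8.33 in cytosolic and 8.09 and 8.17 in polysome-associated mRNA of TFoxp3- cells, and 7.33 and 7.14 and then 7.50 and 6.81 in TFoxp3+ cells. After activation they were 8.08 and 7.53 in cytosolic and 6.98 and 7.21 in polysome-associated mRNA of TFoxp3- cells, and 5.69 and 8.55 and then 6.19 and 6.70 in TFoxp3+ cells. The ex vivo groups did not overlap, and the values for TFoxp3+ minus TFoxp3- cells were -1.29 ± 0.68 (adjusted p = 0.498) in cytosolic and -0.98 ± 0.68 (adjusted p = 0.648) in polysome-associated mRNA, with the largest SE of the 10 genes. These subset differences were called without array 13 or 15 in cytosolic mRNA (adjusted p = 0.0558 each) and, in a fit of only the groups compared or with array weights, in both fractions (adjusted p from 0.0113 to 0.0905). The cytosolic pair of activated TFoxp3+ cells lay 2.87 apart, and the activation difference of this fraction, -0.12 ± 0.68 (adjusted p = 0.912), was -1.55 without array 15 and 1.32 without array 13. In polysome-associated mRNA of TFoxp3- cells the activation difference was -1.03 ± 0.68 (adjusted p = 0.286), with no overlap of arrays. It was called in a fit of only the groups compared, which leaves that spread pair out.

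Cdkn1b, for the CDK inhibitor p27Kip1, was the gene with the largest difference between the subsets. In TFoxp3- cells its level was 6.51 and 7.22 in ex vivo cytosolic and 7.41 and 6.95 in ex vivo polysome-associated mRNA, and 6.68 and 6.59 and then 8.77 and 7.07 after activation. In TFoxp3+ cells the cytosolic level was 8.53 and 9.49 ex vivo and 11.42 and 11.33 after activation, and the polysome-associated level 7.77 and 7.88 ex vivo and 11.20 and 10.40 after activation. The 4 activated TFoxp3+ arrays were above the other 12, and within each state and fraction every TFoxp3+ array was above every TFoxp3- array. Activated TFoxp3+ cells had 26.8-fold more cytosolic Cdkn1b, at 4.74 ± 0.51 (adjusted p = 0.000664), and 7.33-fold more polysome-associated Cdkn1b, at 2.87 ± 0.51 (adjusted p = 0.00537), the latter between 2.03 without array 12 and 3.72 without array 10 and with an adjusted p of 0.174 in a fit of these 2 groups alone. Ex vivo the cytosolic difference was 2.14 ± 0.51 (adjusted p = 0.0689), or 4.42-fold, and the polysome-associated difference of 0.65 ± 0.51 (adjusted p = 0.701) was not called. The ex vivo cytosolic call was kept in a fit of only the groups compared and with array weights. Activation raised Cdkn1b in TFoxp3+ cells by 2.37 ± 0.51 (adjusted p = 0.0058) in cytosolic and 2.97 ± 0.51 (adjusted p = 0.00171) in polysome-associated mRNA, whereas the differences in TFoxp3- cells were -0.23 ± 0.51 (adjusted p = 0.779) and 0.74 ± 0.51 (adjusted p = 0.311). The tests of the difference in response were 2.60 ± 0.73 (adjusted p = 0.0985) in cytosolic and 2.23 ± 0.73 (adjusted p = 0.143) in polysome-associated mRNA, so the unequal response was not called. The ex vivo call was lost without array 1, 3, 5 or 7 (log2 difference 1.66 to 2.62, adjusted p from 0.173 to 0.554) and the cytosolic activation call without array 1 (log2 difference 1.89, adjusted p = 0.06).

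**Figure D3:**
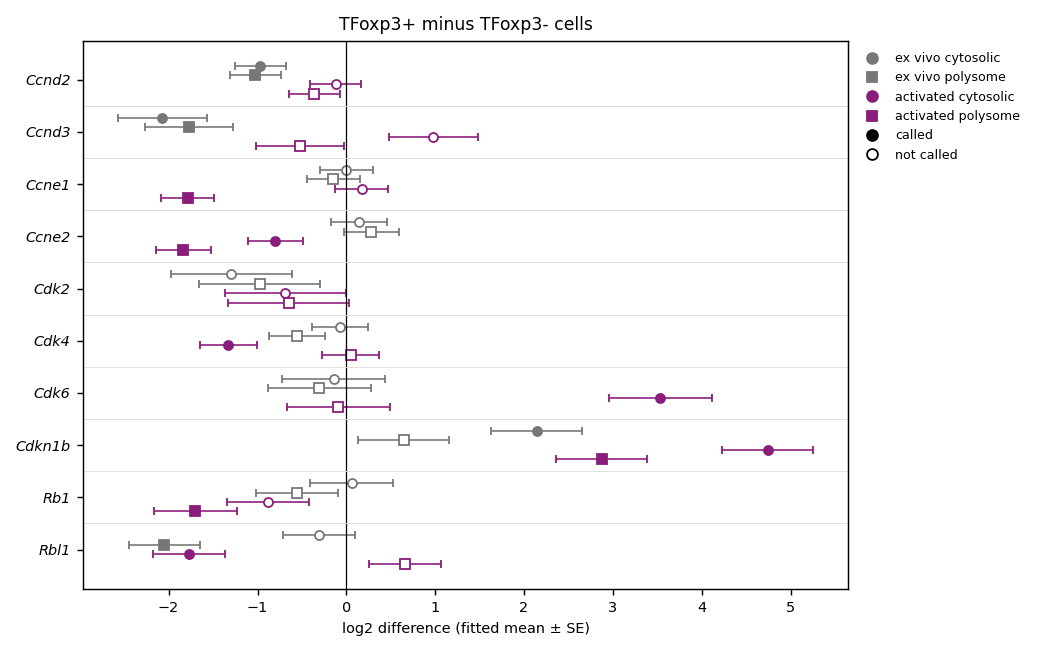
The horizontal axis is the log2 difference of TFoxp3+ minus TFoxp3- cells and each row is a gene. Grey symbols are ex vivo and purple activated cells, circles cytosolic and squares polysome-associated mRNA, error bars are the SE of the limma fit, and filled symbols passed an adjusted p under 0.15. Cdkn1b lies to the right of 0 in all 4 comparisons, up to 4.74, and Ccne1 is near 0 except in activated polysome-associated mRNA (-1.79).

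Rb1 encodes the retinoblastoma protein, the pocket protein that holds the activating E2F factors. Its ex vivo levels were 6.59 and 6.76 in cytosolic and 7.32 and 6.45 in polysome-associated mRNA of TFoxp3- cells, and 6.61 and 6.86 and then 6.76 and 5.90 in TFoxp3+ cells. After activation they were 5.27 and 3.99 in cytosolic and 5.82 and 5.48 in polysome-associated mRNA of TFoxp3- cells, and 3.40 and 4.09 and then 4.23 and 3.68 in TFoxp3+ cells. All activated arrays were lower than all ex vivo arrays, and those of TFoxp3+ cells had reached values below the array medians. The fall was -2.99 ± 0.46 (adjusted p = 0.000948) in cytosolic and -2.38 ± 0.46 (adjusted p = 0.00349) in polysome-associated mRNA of TFoxp3+ cells, both kept under every alternative. In TFoxp3- cells the fall was -2.05 ± 0.46 (adjusted p = 0.00839) in cytosolic mRNA, lost without array 7 or 11 (log2 difference -1.96 to -1.41, adjusted p from 0.0574 to 0.0705), and its polysome-associated difference of -1.23 ± 0.46 (adjusted p = 0.0678) was not called. The subsets did not differ by a called amount ex vivo, and after activation polysome-associated Rb1 was lower in TFoxp3+ cells, at -1.70 ± 0.46 (adjusted p = 0.0329), with -0.88 ± 0.46 (adjusted p = 0.237) in cytosolic mRNA. That call was lost with array weights (adjusted p = 0.198).

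Rbl1 encodes p107, a pocket protein that binds repressive E2F factors and whose gene is itself a known E2F target. Ex vivo its level was 6.51 and 5.45 in cytosolic and 6.15 and 6.53 in polysome-associated mRNA of TFoxp3- cells, and 5.88 and 5.47 in cytosolic but 4.19 and 4.39 in polysome-associated mRNA of TFoxp3+ cells. After activation it was 5.66 and 5.38 in cytosolic and 5.34 and 4.57 in polysome-associated mRNA of TFoxp3- cells, and 4.07 and 3.44 in cytosolic but 5.94 and 5.29 in polysome-associated mRNA of TFoxp3+ cells. The fraction with less Rbl1 in TFoxp3+ cells was thus the polysome-associated one ex vivo and the cytosolic one after activation. Activation of TFoxp3+ cells changed Rbl1 by -1.92 ± 0.40 (adjusted p = 0.00494) in cytosolic and by 1.32 ± 0.40 (adjusted p = 0.0305) in polysome-associated mRNA, and that of TFoxp3- cells by -0.46 ± 0.40 (adjusted p = 0.439) and by -1.38 ± 0.40 (adjusted p = 0.0234). The polysome-associated responses of the subsets were opposite in sign and differed by 2.71 ± 0.57 (adjusted p = 0.0345), whereas the cytosolic responses differed by -1.46 ± 0.57 (adjusted p = 0.242). TFoxp3+ cells had less Rbl1 than TFoxp3- cells in ex vivo polysome-associated mRNA, at -2.05 ± 0.40 (adjusted p = 0.034), and in activated cytosolic mRNA, at -1.77 ± 0.40 (adjusted p = 0.019). Values near or below the array medians enter each of these differences, and no folds are given. The cytosolic subset call was lost with array weights and with only the activated cytosolic arrays (adjusted p from 0.163 to 0.237). The polysome-associated calls were lost without array 4, 8 or 12 (log2 difference -1.57 to -0.996, adjusted p from 0.0578 to 0.16) for activation of TFoxp3- cells, without array 2, 6 or 14 (log2 difference 0.996 to 1.42, adjusted p from 0.0902 to 0.158) for that of TFoxp3+ cells, without array 1, 2, 4, 5, 6, 8, 12 or 14 (log2 difference 2.32 to 2.89, adjusted p from 0.0554 to 0.145) for the difference of the responses, and without array 2, 4 or 8 (log2 difference -2.23 to -1.86, adjusted p from 0.17 to 0.238) for the ex vivo subsets. Those of TFoxp3+ activation and of the difference of the responses were also lost with array weights or a fit of only the groups compared (adjusted p from 0.0616 to 0.168). The call between the ex vivo subsets was kept in both of these settings.

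The polysome-associated minus cytosolic difference of a gene was used as its relative translation, and its difference between TFoxp3+ and TFoxp3- cells as differential translation. As the arrays have like medians, these are relative to other genes, and a change in the total mRNA on polysomes would not show. In activated cells the subsets lie in different array series, so that series and subset cannot be told apart in differential translation. Ex vivo no gene of the 10 was called, where 0.0607% of all genes were called in TFoxp3- cells and 0.0364% in TFoxp3+ cells by limma at an adjusted p under 0.05. At an unadjusted p under 0.05 there were 0 and 2 of the 10, against 4.25% and 4.69% of all genes. Those 2 were Cdkn1b at -1.18 ± 0.51 and Rbl1 at -1.38 ± 0.40 in TFoxp3+ cells, both lower in polysomes. For differential translation ex vivo, 0% of all genes were called at an adjusted p under 0.3, that is none of the 16475 and none of the 10, against 193 genes (1.17%) at an unadjusted p under 0.05, among them Rbl1 at -1.74 ± 0.57. The anota-type model called 64 genes in that comparison and none of the 10.

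After activation, polysome-associated mRNA differed from cytosolic mRNA for 1 of the 10 genes in TFoxp3- cells, where Cdk6 was higher in polysomes, against 2.36% of all genes higher and 1.52% lower. In TFoxp3+ cells 1 gene was higher in polysomes (Rbl1) and 1 lower (Ccne1), against 2.31% and 2.36%. At the threshold of 0.15 for differential translation, 2 genes were higher in TFoxp3+ cells (Cdk4 and Rbl1) and 2 lower (Ccne1 and Cdk6), where 3.83% of all genes were higher and 3.65% lower. The median of the 10 genes in differential translation was -0.93, against 0.056 for all genes. With cyclic loess the share of higher calls among all called genes moved from 51.2% to 38.7%.

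Ccne1 in activated TFoxp3+ cells was 9.82 and 9.08 in cytosolic and 8.06 and 7.46 in polysome-associated mRNA, and in activated TFoxp3- cells 9.15 and 9.41 and then 9.39 and 9.70. The fractions did not overlap in TFoxp3+ cells, where the polysome-associated level was 3.23-fold lower at -1.69 ± 0.30 (adjusted p = 0.0106), whereas the difference in TFoxp3- cells was 0.27 ± 0.30 (adjusted p = 0.693). The resulting differential translation was -1.96 ± 0.42 (adjusted p = 0.0392), or 3.89-fold lower in TFoxp3+ cells. It was lost with array weights (adjusted p = 0.22) and with only the activated arrays in the fit (adjusted p = 0.415), as was the fraction call in TFoxp3+ cells (adjusted p from 0.172 to 0.554), and both were kept without any single array. The study selected cyclin E1 among genes that differ in translation on these same samples, so the value is not independent evidence of its direction. Apart from the arrays, the study reports western blots with more cyclin E1 and cyclin D3 protein in activated TFoxp3- than in activated TFoxp3+ cells. Protein was not measured in the data used here.

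For Cdk6 the fractions were apart in opposite ways, with 2.45 ± 0.58 (adjusted p = 0.0435) in activated TFoxp3- cells and -1.17 ± 0.58 (adjusted p = 0.287) in activated TFoxp3+ cells. The differential translation was -3.62 ± 0.82 (adjusted p = 0.0481). In the cytosolic pair of activated TFoxp3- cells, 7.08 and 4.96, the arrays lay 2.12 apart. The call of the higher polysome-associated level of these cells was lost without array 10, 11 or 12 (log2 difference 1.39 to 2.89). It was also lost without each of the ex vivo arrays 1 to 8, which do not enter this comparison and leave the difference at 2.45. Array weights or a fit of only these groups ended it as well (adjusted p from 0.0596 to 0.333). The differential translation call was kept without any single array, was lost with array weights and with only the activated arrays (adjusted p up to 0.433), and was -1.06 (adjusted p = 0.333) in the anota-type model, which corrects the polysome-associated for the cytosolic level by a slope per gene.

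Rbl1 was higher in the polysomes of activated TFoxp3+ cells by 1.86 ± 0.40 (adjusted p = 0.0266), and the difference in activated TFoxp3- cells was -0.56 ± 0.40 (adjusted p = 0.509). Its differential translation was -1.74 ± 0.57 (adjusted p = 1) ex vivo and 2.43 ± 0.57 (adjusted p = 0.0549) after activation. The change of the fraction difference with activation was 3.24 ± 0.57 (adjusted p = 0.0507) in TFoxp3+ cells, just over the threshold of 0.05, and -0.93 ± 0.57 (adjusted p = 0.639) in TFoxp3- cells. In these tests of state, none of the 10 genes was called, against 0.158% of all genes in TFoxp3- cells and 0.279% in TFoxp3+ cells, and 2 and 3 of the 10 were under an unadjusted p of 0.05, against 10.5% and 11.8% of all genes. The anota-type model gave 0.81 (adjusted p = 0.573) for differential translation after activation, and array weights or a fit of only the groups compared ended this call (adjusted p from 0.376 to 0.514) and the TFoxp3+ fraction call (adjusted p from 0.527 to 0.535). The TFoxp3+ fraction call was also lost without array 14 or 15 (log2 difference 1.53 to 1.54, adjusted p from 0.0807 to 0.0954). The study chose its genes that differ in translation on these same samples, and its text does not name Rbl1.

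Cdk4 was close to the threshold of 0.15, with differential translation of 1.38 ± 0.45 (adjusted p = 0.149) from 0.93 ± 0.32 (adjusted p = 0.126) in activated TFoxp3+ cells and -0.44 ± 0.32 (adjusted p = 0.512) in activated TFoxp3- cells. The call was lost without array 10, 11, 12, 13, 14 or 16 (log2 difference 1.01 to 1.47). It was also lost without each of the ex vivo arrays 1 to 8, which do not enter this comparison and leave the difference at 1.38. Array weights, cyclic loess or a fit of only the activated arrays ended it as well (adjusted p from 0.298 to 0.694). The anota-type model gave -0.59 (adjusted p = 0.538), the opposite sign. Of the genes that were not called, Cdkn1b had the largest value, -1.87 ± 0.73 (adjusted p = 0.225), which was called without array 12 (-2.71) or 14 (-2.27) and was 2.91 (adjusted p = 0.64), the opposite sign, in the anota-type model. It was followed by Ccnd3 at -1.50 ± 0.71 (adjusted p = 0.322) and Ccne2 at -1.03 ± 0.44 (adjusted p = 0.268). For Ccnd2, Cdk2 and Rb1 the values were -0.24 ± 0.41, 0.037 ± 0.96 and -0.82 ± 0.66. The anota-type model called Ccne1, at -1.93 (adjusted p = 0.0253), and Rb1, at -1.82 (adjusted p = 0.135), and gave -0.53 for Cdk2. Its slopes were 0.84 for Ccne1, 0.27 for Cdk6 and 0.085 for Rbl1, and -0.0068 for Cdkn1b, -0.14 for Rb1 and -0.48 for Cdk4. They rest on pairs of arrays that were assumed. A slope near 0 leaves the polysome-associated level almost uncorrected for the cytosolic one, and a negative slope corrects it in reverse. Ccnd2 had the same sign of the fraction difference in all 4 cell groups, 0.49 to 0.80, with no call in any of them.

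**Figure D4:**
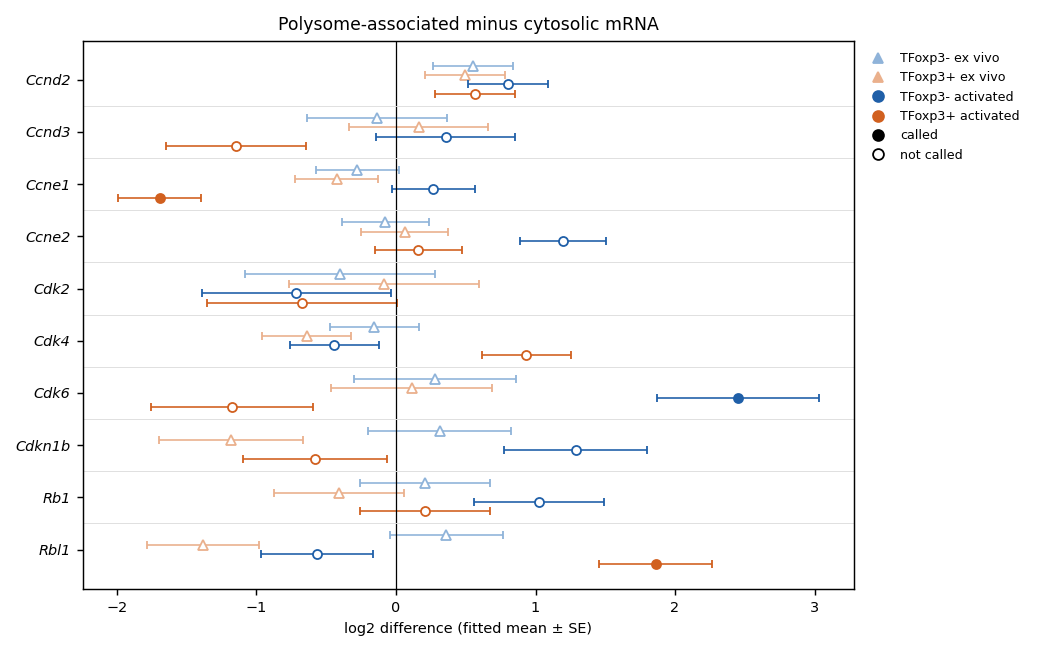
The horizontal axis is the log2 difference of polysome-associated minus cytosolic mRNA and each row is a gene. Triangles are ex vivo and circles activated cells, blue is TFoxp3- and orange TFoxp3+, error bars are the SE of the limma fit, and filled symbols passed an adjusted p under 0.05. No ex vivo symbol is filled, and the 3 filled symbols are Ccne1 (-1.69) and Rbl1 (1.86) in TFoxp3+ cells and Cdk6 (2.45) in TFoxp3- cells.

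**Figure D5:**
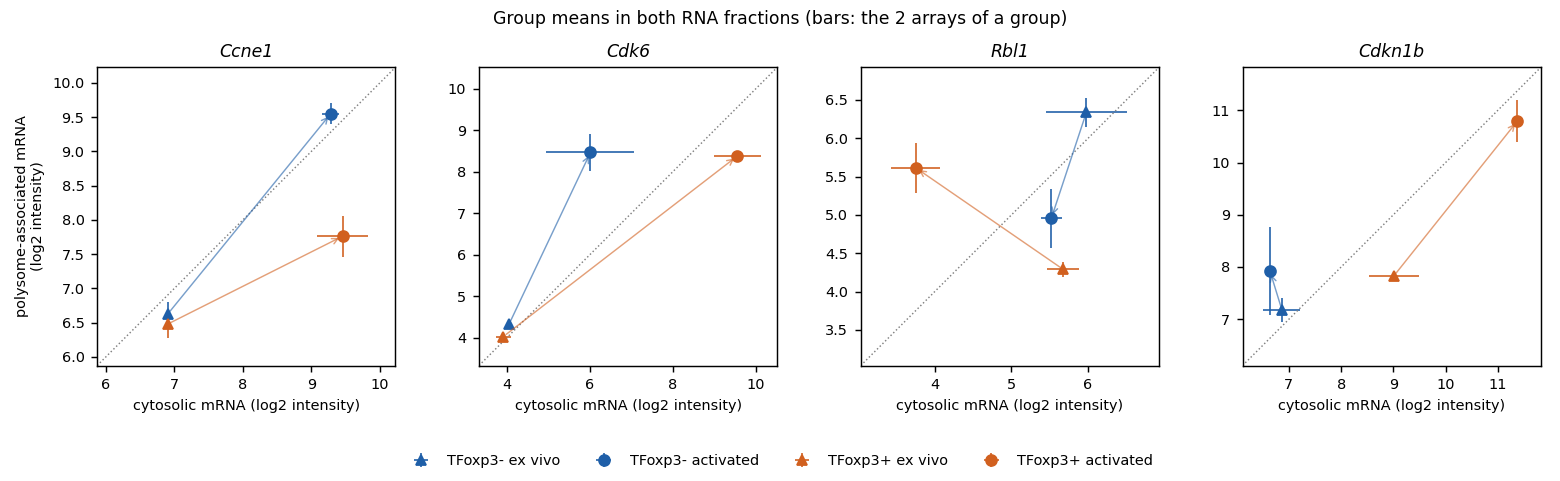
Each panel plots 1 gene, with the group mean in cytosolic mRNA on the horizontal axis and in polysome-associated mRNA on the vertical axis (log2 intensity). Bars reach to the 2 arrays of a group, arrows run from ex vivo to activated cells, and on the dotted line both fractions are equal. The activated subsets have like cytosolic but unlike polysome-associated Ccne1, like polysome-associated but unlike cytosolic Cdk6, and differ in both for Cdkn1b.

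Across subsets and states, the test of unequal activation called 1 of the 10 genes higher in the TFoxp3+ response in cytosolic mRNA (Cdk6) and none lower, against 0.856% and 1.21% of all genes. In polysome-associated mRNA it called 1 higher (Rbl1) and 1 lower (Ccne2), against 1.15% and 1.43%.

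Other genes of the pathway were taken from lists, and their counts stand against shares of all genes of 13.6%, 14.1%, 16.9% and 14.7% that rose and 12.5%, 16.4%, 14.4% and 14.6% that fell with activation. Of 6 measured genes for cyclin D1 and other CDK inhibitors, 3, 2, 2 and 2 rose with activation in cytosolic and polysome-associated mRNA of TFoxp3- and then TFoxp3+ cells, and none fell. Cdkn1a, for the inhibitor p21Cip1, rose in all 4, for example by 2.48 ± 0.38 (adjusted p = 0.000869) in cytosolic mRNA of TFoxp3- cells and by 1.84 ± 0.38 (adjusted p = 0.00441) in that of TFoxp3+ cells. Between the activated subsets, 2 of the 6 were higher in TFoxp3+ cells and 0 lower in cytosolic mRNA (13.8% and 12.2% of all genes). In polysome-associated mRNA 2 were higher and 0 lower (18.7% and 13.7% of all genes). The level of Cdkn1a differed by -0.11 ± 0.38 (adjusted p = 0.876) in cytosolic mRNA and was higher in TFoxp3+ cells in polysome-associated mRNA, at 0.86 ± 0.38 (adjusted p = 0.14).

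Among 16 genes for E2F factors, their DP partners and the DREAM complex, which represses cell cycle genes in resting cells, 4, 6, 2 and 3 rose in these comparisons and 1, 0, 2 and 1 fell. Of all genes 13.6% to 16.9% rose, so the share of the list in TFoxp3+ cells was near that of all genes. Tfdp1, which encodes a DP partner of E2F factors, rose in all 4, by 5.77 ± 0.46 (adjusted p = 1.85e-05) in cytosolic mRNA of TFoxp3- cells and 6.17 ± 0.46 (adjusted p = 1.68e-05) in that of TFoxp3+ cells, and E2f1, an activating E2F, rose in 3 of them. Between the activated subsets, 0 were higher in TFoxp3+ cells and 4 lower in cytosolic mRNA, and 1 was higher and 6 lower in polysome-associated mRNA, against 13.8% and 12.2% and then 18.7% and 13.7% of all genes. Those lower included E2f8, an atypical repressive E2F, at -2.36 ± 0.35 (adjusted p = 0.00193), E2f6 at -4.28 ± 0.55 (adjusted p = 0.00101) and Lin9, of the DREAM and MuvB core, at -2.54 ± 0.45 (adjusted p = 0.00538), all in polysome-associated mRNA. The difference in the activation of E2f8 between the subsets was -2.78 ± 0.49 (adjusted p = 0.0161).

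The 15 genes measured here covered the turnover of p27Kip1 and cyclin E, the CDK-activating kinase and the CDC25 phosphatases. Of these, 5, 7, 5 and 3 rose with activation and 0, 1, 1 and 0 fell, in the same order, where 13.6% to 16.9% of all genes rose and 12.5% to 16.4% fell. Rnf123, for a ubiquitin ligase that acts on p27Kip1, rose by 4.74 ± 0.24 (adjusted p = 2.36e-06) in cytosolic mRNA of TFoxp3- cells and by 3.88 ± 0.24 (adjusted p = 6.31e-06) in that of TFoxp3+ cells, and Cks1b, a cofactor of the ligase SKP2, by 2.93 ± 0.30 (adjusted p = 6.71e-05) and 1.56 ± 0.30 (adjusted p = 0.00275). Skp2, which marks p27Kip1 for degradation, rose by 2.73 ± 0.25 (adjusted p = 2.09e-05) in polysome-associated mRNA of TFoxp3- cells, against 0.35 ± 0.25 (adjusted p = 0.327) in TFoxp3+ cells, and these responses differed by -2.39 ± 0.35 (adjusted p = 0.00826). In polysome-associated mRNA of activated cells, 1 of the 15 was higher in TFoxp3+ cells and 8 were lower (18.7% and 13.7% of all genes), among them Skp2 at -2.65 ± 0.25 (adjusted p = 0.000235) and Cdk7, the catalytic subunit of the CDK-activating kinase, at -3.22 ± 0.39 (adjusted p = 0.000807). In cytosolic mRNA 1 was higher and 5 were lower (13.8% and 12.2% of all genes). Fbxw7, for the ligase component that recognises cyclin E, was the 1 that was higher in cytosolic mRNA, at 1.68 ± 0.40 (adjusted p = 0.0236), and was lower in polysome-associated mRNA, at -2.07 ± 0.40 (adjusted p = 0.00804), with a differential translation of -3.75 ± 0.57 (adjusted p = 0.0139). Differential translation was also called for Skp2, at -2.11 ± 0.35 (adjusted p = 0.0172), and Cdk7, at -2.24 ± 0.56 (adjusted p = 0.0666).

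The 4 measured genes for later cyclins and CDK1 rose with activation in all comparisons except Ccnb2 in cytosolic mRNA of TFoxp3+ cells, which was at 0.82 ± 0.56 (adjusted p = 0.289). These 4 genes had a median rise of 4.02 in cytosolic and 5.12 in polysome-associated mRNA of TFoxp3- cells and 1.79 and 2.73 in TFoxp3+ cells. Of 18 measured S phase genes known as E2F targets, 15, 15, 10 and 13 rose and 0, 1, 1 and 0 fell, with a median of 2.64, 3.36, 1.47 and 2.13. Of all genes, 13.6% to 16.9% rose and 12.5% to 16.4% fell. The ribonucleotide reductase subunit gene Rrm2 rose by 5.84 ± 0.51 (adjusted p = 3e-05) in cytosolic mRNA of TFoxp3- cells and 4.64 ± 0.51 (adjusted p = 0.000115) in that of TFoxp3+ cells. In the activated subsets, 1 of the 18 was higher in TFoxp3+ cells and 8 were lower in cytosolic mRNA (13.8% and 12.2% of all genes). In polysome-associated mRNA 0 were higher and 5 lower (18.7% and 13.7% of all genes). Prim1, for a primase subunit, was the furthest apart in both, at -2.998 ± 0.38 (adjusted p = 0.00127) and -3.21 ± 0.38 (adjusted p = 0.000698). A separate list of 7 cycling markers had a mean of 8.22 to 8.62 on activated TFoxp3- arrays and 6.74 to 8.12 on activated TFoxp3+ arrays, against 5.01 to 6.01 ex vivo. The part of the number of cycling cells in the differences of Ccne1, Ccne2 and Cdkn1b was not tested.

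The genes whose pattern over the 16 arrays was most like that of each of the 10 are given as a description by Pearson's r over the arrays, which share subset, state and array series. They were Tlk1 for Cdk6 (0.981), Golt1b for Ccne1 (0.969), Mbnl1 for Rb1 (0.952), Cip2a for Ccne2 (0.950) and Nt5e for Cdkn1b (0.920). For the other genes the highest r was lower, at 0.893 for Ccnd2 with Hsph1, 0.884 for Cdk2 with Dpp9, 0.873 for Ccnd3 with Slc16a5, 0.857 for Rbl1 with Tcf3 and 0.818 for Cdk4 with Nudt3. Nt5e, for the ectoenzyme CD73, is on the list of regulatory T cell markers used for the labels. Among the 10 genes themselves the highest r was 0.775 for Ccne1 and Cdk6, followed by 0.758 for Cdk4 and Rbl1, and the lowest was -0.76 for Cdk6 and Rb1.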

How the data were processed

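Cytosolic and polysome-associated mRNA was measured on 16 Affymetrix arrays in 8 groups of 2. Per the labels and the methods, the RNA was amplified with the Ovation Pico WTA system, and the authors deposited log2 intensities from RMA, for which the probes had been regrouped by Entrez gene. No genome build enters these values. The sources used here do not say whether RMA was run once over all arrays, as is needed to compare array series. The table has 16539 features, and without its 64 control probe sets it holds 16475 genes (15780 with a symbol), which were all tested, with no filter, floor or pseudocount.

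Groups follow the labels, which do not pair cytosolic with polysome arrays. Differences were tested with limma 3.58.1 in R 4.3.3, with two-sided moderated t statistics from 1 fit of all 16 arrays, a mean per group and 8 residual degrees of freedom. Benjamini-Hochberg adjustment covered all genes. The thresholds on the adjusted p follow the false discovery rates in the methods where these give one: 0.15 for the activated subsets and for differential translation in activated cells and 0.3 for differential translation ex vivo. For the ex vivo subsets 0.15 was taken over from the activated ones, and the other comparisons used 0.05. SEs are those of the fit. The covariance method of the study was not run.

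The 10 genes and the pathway and marker lists were chosen with earlier results of these data known. All 10 genes are named. From each list, genes were named as examples after their values were seen. Genes of like pattern are those with the highest Pearson's r, without predicted genes. Alternatives were a fit limited to the groups compared, array weights, testing only genes whose mean was above the median, each array centred on its own median, cyclic loess, and leaving out 1 array at a time, where a lone array is taken to vary as other groups do. For differential translation an anota-type covariance model was added, in which consecutive array numbers were taken as pairs. The fits were tested on simulated data. Promoters are from RefSeq (GRCm38.p6). Python 3.11.15, pandas 2.3.3 and matplotlib 3.10.9 were used for sequences and plots.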

Additional observations from a re-analysis of the deposited data

Results flagged for a closer look

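The subsets differed in 7 tests of the difference itself by limma, in which the adjusted p covered all genes. In differential translation after activation, the value was -1.96 for Ccne1 (adjusted p = 0.0392), -3.62 for Cdk6 (adjusted p = 0.0481), 2.43 for Rbl1 (adjusted p = 0.0549) and 1.38 for Cdk4 (adjusted p = 0.149). In the response to activation, TFoxp3+ cells differed from TFoxp3- cells by 3.67 in cytosolic Cdk6 (adjusted p = 0.0487), by -2.12 in polysome-associated Ccne2 (adjusted p = 0.0318) and by 2.71 in polysome-associated Rbl1 (adjusted p = 0.0345). All are log2 values from groups of 2 arrays. The activated subsets lie in different array series, which cannot be told apart from the subsets in these tests. Each of the 7 calls was lost in the fit of only the groups compared, and in array weights all but that of cytosolic Cdk6 were lost. Leaving out 1 array ended the call of Cdk4 for any of 14 arrays, among them the ex vivo arrays 1 to 8, which leave its difference unchanged. The calls of Ccne1, Cdk6 and Rbl1 in differential translation passed without each array. The calls in the response to activation were also lost, without any of 10 arrays for Cdk6, 7 for Ccne2 and 8 for Rbl1. Some of these arrays are of the other fraction and leave the difference unchanged. In the anota-type model the differential translation call of Ccne1 was kept. That model ended the calls of Cdk6, at -1.06 (adjusted p = 0.333), and Rbl1, at 0.81 (adjusted p = 0.573). Cdk4 had the opposite sign in it, at -0.59.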

How the results depend on the processing

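Of 47 calls of the 10 genes, 14 were kept under every alternative that measured the gene, and 33 were lost under 1 or more. Of 133 results not called, 28 were called under 1 or more. Counts below are of the 10 genes. The calls of all genes moved as well, as given further below for the subset comparisons and differential translation. For the other comparisons the counts of all genes under these settings are not given. The counts are therefore no result about the 10 genes alone. A fit of only the groups compared called 3 in place of 5 in activation of TFoxp3- cytosolic mRNA, 3 in place of 6 in TFoxp3+ polysome-associated mRNA, 5 in place of 3 between ex vivo polysome-associated subsets, 1 in place of 5 between activated cytosolic subsets, and 0 in the fractions of activated TFoxp3- cells (1 before) and TFoxp3+ cells (2 before), in differential translation after activation (4 before) and in unequal activation in cytosolic (1 before) and polysome-associated mRNA (2 before). Array weights called 2 between activated cytosolic subsets and in unequal cytosolic activation, and 0 in unequal polysome-associated activation, in both fraction tests of activated cells and in differential translation after activation. In unequal cytosolic activation, 2 were called among genes above the median and with cyclic loess and 0 with centring, and in the polysome-associated test 1 among genes above the median. In the change of the fraction difference of TFoxp3+ cells, 1 was called in each of these 3 settings and 0 before. Cyclic loess called 1 between ex vivo polysome-associated subsets, loess and centring 2 in the fractions of activated TFoxp3- cells, and the anota-type model 2 in differential translation after activation, where Cdk4 turned to -0.59 and Cdkn1b, not called, to 2.91.

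Leaving out 1 array gave 1 to 5 calls in activation of TFoxp3- cytosolic mRNA (1 without array 7), 4 to 8 in that of TFoxp3+ cytosolic mRNA (4 without array 1), 0 to 4 between ex vivo cytosolic subsets (0 without array 1, 3, 5 or 7), 0 to 3 between polysome-associated ones (0 without array 2, 4 or 8), 0 to 2 and 1 to 3 in the fractions of activated TFoxp3- and TFoxp3+ cells, 0 to 2 in unequal cytosolic and 0 to 3 in unequal polysome-associated activation, and 0 to 1 in the change of the TFoxp3+ fraction difference. The activation difference of Cdk2 in TFoxp3+ cytosolic mRNA lay between -1.55 and 1.32 and its differential translation after activation between -1.40 and 1.47, the ends being without array 15 or 13.

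Over all genes, the fit of only the groups compared moved the counts of calls from 765 to 5185 and from 638 to 3436 between ex vivo subsets, from 4279 to 490 and from 5338 to 855 between activated subsets, and from 1232 to 0 in differential translation after activation. In the latter, array weights called 126 and the anota-type model 2989, and ex vivo the anota-type model called 64 in place of 0. With array weights, 5326 and 4103 were called between ex vivo and 1368 and 1996 between activated subsets. The share of higher calls among all genes moved with cyclic loess from 60.9% to 73.3% in the fractions of activated TFoxp3- cells and from 41.3% to 58.4% in unequal cytosolic activation, and with centring from 49.5% to 59.9% in the fractions of activated TFoxp3+ cells. Loess also moved it from 57.7% to 46.0% between activated polysome-associated subsets and from 83.3% to 100% of 6 or fewer genes in the fractions of ex vivo TFoxp3+ cells. In the change of the fraction difference it moved from 57.7% to 81.3% (centring) and 71.1% (loess) in TFoxp3- cells and from 60.9% to 71.4% and 47.1% in TFoxp3+ cells.

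No fit with a replicate block was made, because the labels number the arrays 1 to 16 and give the groups no shared replicate numbers, and the pairs of the anota-type model are assumed. The limits are 2 arrays per group, array series that cannot be told apart from activation or from the activated subsets, levels near or below the array medians in all groups of Ccne2, in Cdk6 ex vivo and in activated TFoxp3- cytosolic mRNA, in 3 of 4 activated groups of Rb1 and in 3 groups of Rbl1, and the lack of a record of which polysome array belongs to which cytosolic array.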
